A study of Rattus norvegicus with 14 samples.

Results

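The comparison described here sets soleus muscles of male Sprague Dawley rats that had been tenotomized for 6, 16 or 22 weeks against muscles tenotomized for 1 to 4 weeks. Tenotomy cuts the tendon and so takes the tension off the muscle. The members were chosen by the submitters' group labels, long-term and short-term immobilized, and make up 10 of the 14 arrays of the series. The long-term group holds 4 arrays: 2 right muscles at 6 weeks (rats 61 and 62), 1 at 16 weeks and 1 at 22 weeks, each from a further rat. The short-term group holds 6 right muscles: 2 at 1 week, 2 at 2 weeks, 1 at 3 weeks and 1 at 4 weeks. No rat gave an array to both of these groups. The other 4 arrays are control left muscles, and 2 of them, controls 1 and 4, came from rats 62 and 61, the animals with a 6-week tenotomy on the right. Controls 2 and 3 came from other rats. No ages are given in the labels, so that time after tenotomy and the age of the rat cannot be told apart. Side and tenotomy also cannot be told apart in comparisons with the controls. Each time point from 3 weeks on, other than 6 weeks, rests on 1 rat. The p-values below measure the spread between these arrays of separate muscles.

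Soleus is a postural muscle of the calf built mostly of slow, oxidative fibres that burn fatty acids in abundant mitochondria. Muscle fibres that lose their load shrink, lower their mitochondrial enzymes and shift their contractile proteins toward fast isoforms. Between the fibres lie fibroblasts, macrophages, vessels and nerve, and fibroblasts lay down collagen and other matrix proteins when a muscle is injured or unloaded. The question addressed is which of these functions differed between early and late muscles, and how close the late muscles came to the controls.

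Whole muscle RNA was measured on arrays, and each value is a probe set signal brought to a common scale on which the median gene is about equal on all arrays. A change shared by all genes therefore cannot be seen. Signals under 9.61 were raised to that floor, so a gene at the floor has no measured level. In whole tissue, fewer cells of a type and less RNA per cell cannot be told apart. The array medians as deposited ran from 29.8 to 49.3. Of 8 quality measures, 4 differed between the long-term and short-term arrays (exact 2-sided permutation test, smallest possible p 0.0095). The signals of the poly-A control transcripts, which are mixed into the RNA, read 109 to 191 on the long-term arrays, 153 to 618 on the short-term arrays and 90.6 to 119 on the controls (exact p = 0.019, adjusted over the 8 measures 0.038). The shift needed to scale an array and its 75th percentile over its median each reached an exact p of 0.0095 (adjusted 0.025). So did the number of genes at the floor (151 to 351 against 85 to 136). On these measures the controls lay mostly with the long-term arrays. Every control had more genes at the floor than any short-term array. The log2 shift was -0.38 to -0.05 on long-term, 0.06 to 0.26 on short-term and -0.22 to -0.05 on control arrays. The log2 ratio of the 75th percentile to the median was 2.26 to 2.49, 1.98 to 2.23 and 2.22 to 2.38. The part of these measures in the gene results was not tested. The 22-week array stood apart within the long-term group, with 351 genes at the floor. Its Gapdh ratio of 3' to 5' signal, a measure of RNA integrity, was 2.78 against 1.38 to 1.54 on the other long-term arrays, within the 1.38 to 2.78 of the controls, and its actin ratio was 3.74 against 1.39 to 2.15. The labelled tissue carried its defining markers: of 12 genes chosen to mark soleus none was called in any of the 3 comparisons, and Myh7, the slow myosin heavy chain, read 9367 to 11370 in long-term, 8602 to 13720 in short-term and 8110 to 10800 in control muscle (mean change from short-term -0.12, SE 0.14, a sign that turns under 3 of the other scalings).

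Long-term muscle differed from short-term muscle across a large share of the genes measured, while it differed from control in no single gene at the same threshold. Of 11062 genes tested, 2145 were higher in long-term muscle (19.4%) and 2305 were lower (20.8%) by limma with a Benjamini-Hochberg adjusted p under 0.05. The falls were the larger changes: 1362 of the lower genes changed by at least 1 on the log2 scale, a 2-fold change, against 345 of the higher ones, and 289 against 18 changed by at least 2. In 1460 genes every long-term array lay above every short-term array (13.2%), and in 1494 every one lay below (13.5%). Against control, short-term muscle had 2354 higher (21.3%) and 2248 lower genes (20.3%). Long-term muscle against control gave 0 higher (0%) and 0 lower genes with limma, and 258 genes (2.33%) at an unadjusted p under 0.05. This share lies under the 1 in 20 that such a threshold gives when no gene differs. Under the alternatives the count ran from 148 on the deposited scale to 695 with array weights, with 526 for the rat as a random block. The 0 calls do not by themselves show a full return. The typical gene changed by 0.40 in absolute log2 terms between long-term and short-term muscle, by 0.42 between short-term muscle and control and by 0.13 between long-term muscle and control. The 3 comparisons share arrays, so their values stand side by side and are not independent. The share of higher genes among the calls moved from 48.2% to 77.9% when arrays were scaled to the median of all probe sets, where the median gene itself was 0.37 higher in long-term muscle, and to 69.7% on the deposited scale (median gene 0.26). Under all 6 scalings 1697 genes were called higher and 1177 lower, and list counts that shrink by 1.5 times or more under this stricter rule are given with it below. The filter on low signals kept 525 genes, 265 of them lower, that needed the short-term arrays to pass it. A gene kept in this way passed only through signals above the filter on short-term arrays, so its values are given without a test. Of the other 10537 genes 2040 were lower (19.4%). Each gene list described below held at most 5 genes that needed the short-term arrays.

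**Figure D1:**
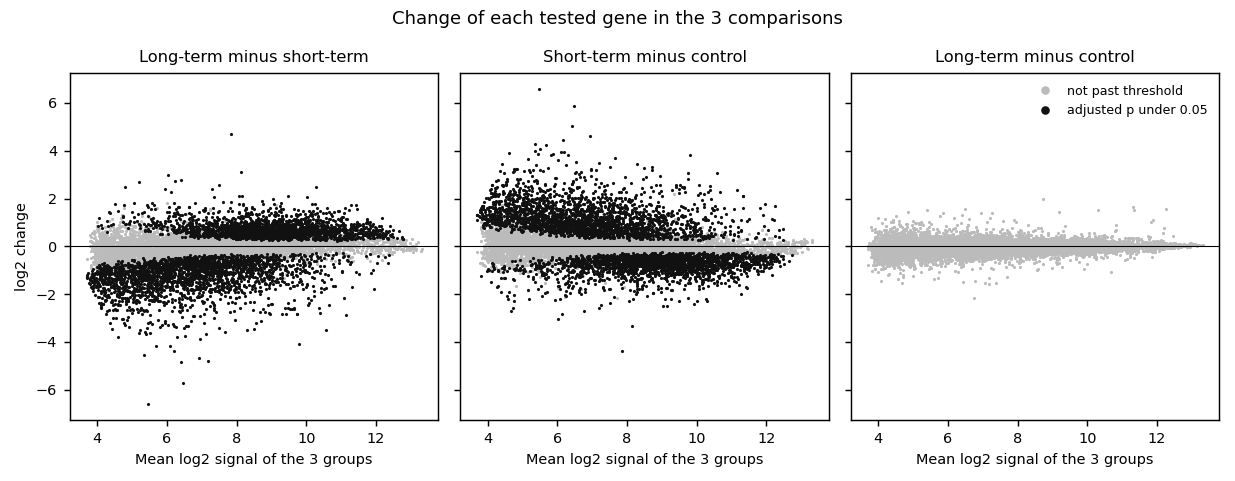
Log2 change of each of 11062 tested genes (vertical axis) against its mean log2 signal over the 3 groups (horizontal axis), with genes at an adjusted p under 0.05 in black. The left panel, long-term minus short-term, holds 4450 called genes, with 289 falls and 18 rises of at least 2 log2 units. The right panel, long-term minus control, holds 0.

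Extracellular matrix genes were lower in long-term muscle, and collagens had the largest median fall of the 49 lists. All 19 collagens measured were lower in long-term than in short-term muscle (100% against the 20.8% of all genes), with a median change of -2.57. Of the matrix glycoproteins and proteoglycans, 24 of 27 were lower, with a median of -2.15, and none was higher. With the 6-week arrays as the whole long-term group these medians were -1.81 and -1.31. Tnn, which encodes the adhesive glycoprotein tenascin-N, differed most. It read 228, 1252 and 3129 (lowest, median and highest) on the short-term arrays and lay at the floor on all 4 long-term and all 4 control arrays. The geometric mean of its short-term arrays lay 96.1-fold above the floor. Tnn needed the short-term arrays to pass the filter on low signals, so this separation was partly fixed by the filter and is given without a test. Cthrc1, a secreted protein of fibroblasts that lay down collagen, read 281, 1486 and 4429 in short-term muscle. It read 44.2 and 43.5 at 6 weeks, 20.01 at 16 weeks and the floor at 22 weeks, against 16.0, 22.2, 20.4 and 31.9 in the controls. Its 2 arrays at 6 weeks still lay above all controls, those at 16 and 22 weeks did not, and the change from short-term was -5.70 (SE 0.61, adjusted p 3.45e-05 by limma).

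Col1a1, a chain of the main fibrillar collagen, read 4604, 6638 and 11930 on the short-term arrays. It stood at 1382 and 1596 at 6 weeks, 404 at 16 weeks and 156 at 22 weeks, against 1365, 501, 536 and 1247 in the controls, a change of -3.51 (SE 0.53, adjusted p 0.000213 by limma). The values at 6 weeks were above the highest control and those at 16 and 22 weeks below the lowest. Col3a1, the other fibrillar collagen of soft tissue, had a smaller change of -1.80 (SE 0.27), from 7777, 8610 and 12420 in short-term muscle to 3444, 4562, 2329 and 1247, with 2262 to 3722 in control. Postn, a matricellular protein that helps to assemble collagen fibrils, fell from 3368, 5462 and 10350 to 738, 799, 232 and 82.5 at 6, 6, 16 and 22 weeks. Spon1, a secreted adhesion protein, fell by 4.83 on the log2 scale (SE 0.39), and the long-term values of 17.6 to 41.3 overlapped the control values of 18.7 to 36.7.

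The enzymes that process collagen fell as well. Of 16 collagen modification and crosslinking genes 14 were lower, with a median change of -1.43. Lox, the lysyl oxidase that crosslinks collagen and elastin, read 837, 2087 and 2613 in short-term muscle and 269, 276, 107 and 73.4 in long-term muscle, against 142 to 227 in control, a change of -3.46 (SE 0.39, adjusted p 4.62e-05 by limma). Pcolce, which enhances procollagen cleavage, fell by 2.84. P4ha3, a collagen prolyl hydroxylase subunit that needed the short-term arrays to pass the filter, read 82.9, 267 and 1034 early and 12.9 to 32.04 late. Matrix proteases and their inhibitors were lower in 12 of 13 genes, with a median of -2.39, and 3 of these 12 needed the short-term arrays to pass the filter. Mmp14, the membrane-bound collagenase, changed by -3.52 (SE 0.42) and Ctsk, a collagen-degrading cathepsin, by -3.40 (SE 0.56). The inhibitor Timp1 fell by 3.22 on the log2 scale. Timp4, an inhibitor found in muscle, was the 1 member that rose, from 61.6, 85.2 and 128 to 112, 124, 233 and 160.6 (change 0.81, SE 0.24, adjusted p 0.0145 by limma), and its groups overlapped. Without the 16-week array Timp4 was no longer called (0.60, adjusted p 0.0639 by limma). Of 13 basement membrane genes 11 were lower (6 under all scalings), with a median of -1.03 that became -0.73 without the 22-week array. Lamb2, the laminin chain enriched at neuromuscular junctions, was the 1 member that was higher (0.33, SE 0.11), though not under all scalings.

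**Figure D2:**
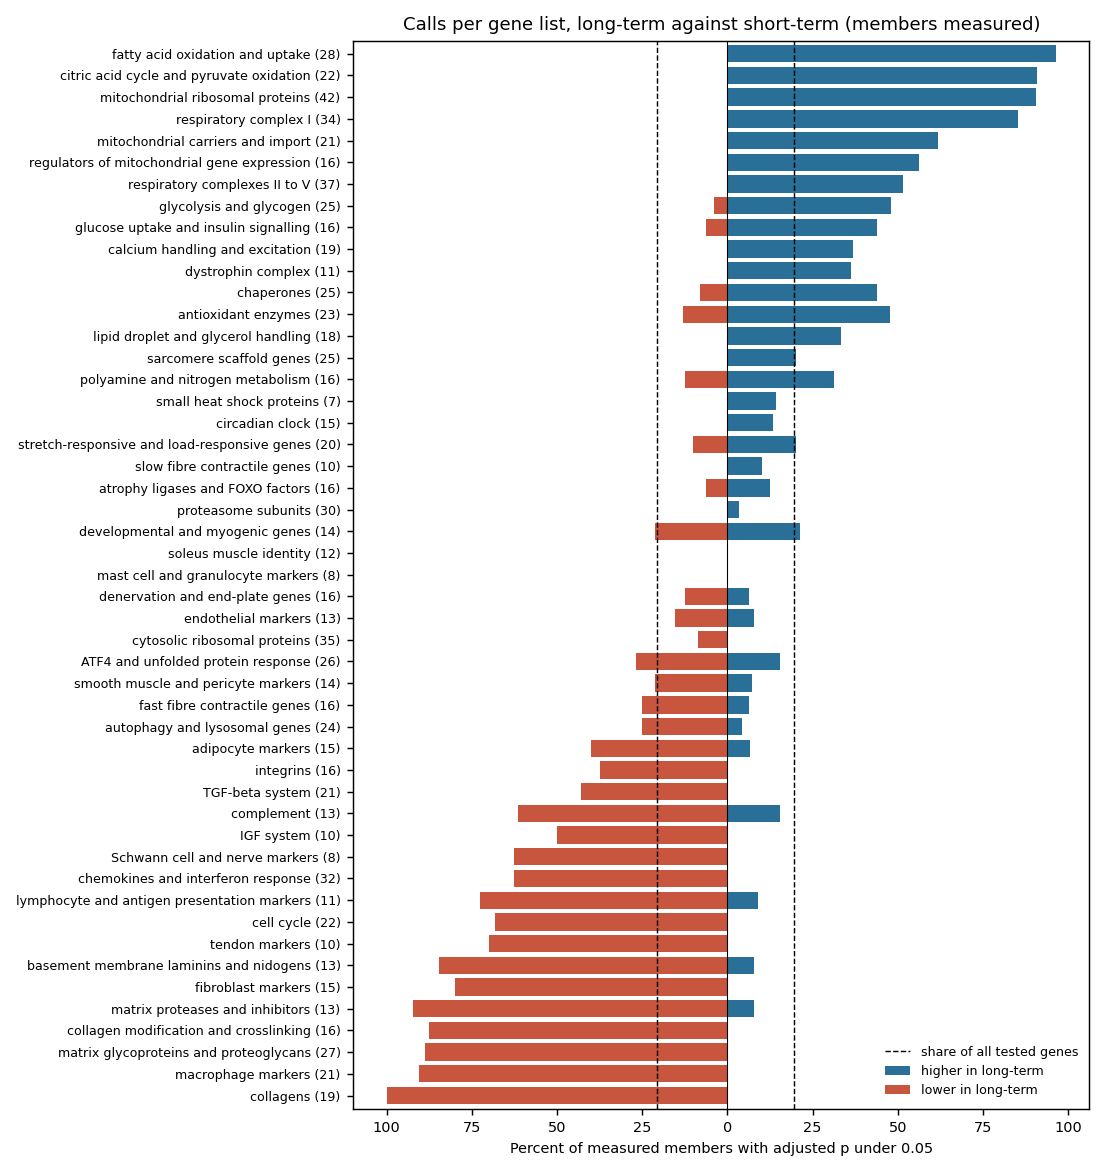
Percent of the measured members of each gene list (number in brackets) that were higher (right, blue) or lower (left, red) in long-term than in short-term muscle at an adjusted p under 0.05. Dashed lines mark the 19.4% and 20.8% of all tested genes. The 19 collagens lie at 100% lower and the 28 fatty acid oxidation genes at 96.4% higher.

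Markers of macrophages and antigen presentation also fell. Of 21 macrophage markers 19 were lower in long-term muscle, none was higher, and the median change was -2.02. Leaving out those that needed the short-term arrays to pass the filter, 18 of 19 were lower. Cd68, a lysosomal protein of macrophages, read 172, 298 and 536 in short-term muscle, 67.1, 117, 64.2 and 31.1 in long-term muscle and 35.6 to 89.9 in control. All long-term values lay under all short-term values (change -2.23, SE 0.36, adjusted p 0.000316 by limma). Of 11 lymphocyte and antigen presentation genes 8 were lower and 1 higher. Among the 9 that passed the filter without the short-term arrays 7 were lower. Cd74, the invariant chain that accompanies MHC class II, fell from 1868, 2553 and 3144 to 632, 864, 359 and 141. RT1-Ba, an MHC class II alpha chain, fell by 4.81 on the probe set with the highest signal, but its other probe sets gave -0.67, -0.13 and 0.05. RT1-Bb, the matching beta chain, was the member called higher (2.73, SE 0.94). Its other probe set gave -1.41, and it was at or near the floor on 4 short-term arrays. These 2 genes are variable between strains and individuals, and their direction is uncertain. None of the 8 measured mast cell and granulocyte markers was called in either direction.

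Soluble immune factors were lower too. Of 32 chemokine and interferon response genes 20 were lower and none higher, with a median of -1.41. Leaving out 2 that needed the short-term arrays to pass the filter, 18 of 30 were lower, with a median of -1.36. Cxcl13, a chemokine that attracts B cells, read 82.3, 271 and 1112 in short-term muscle and 9.61 to 21.3 in long-term muscle, and needed the short-term arrays to pass the filter. Ccl21, which attracts dendritic cells and T cells, changed by -3.33 (SE 0.49). Of 13 complement genes 8 were lower and 2 higher, and the median of -1.87 became -1.44 without the 22-week array. C3, the central complement component, fell from 65.8, 152 and 425 to 9.61 to 30.2 (change -3.41, SE 0.48, adjusted p 0.000146 by limma). Cfi, the protease that inactivates complement fragments, went the other way. It read 511, 483, 283 and 756 in long-term muscle, 129, 239 and 573 in short-term muscle and 245 to 268 in control (change from short-term 0.93, SE 0.33, adjusted p 0.0344 by limma), so every long-term value lay above every control value. The call of Cfi was lost in 6 of the fits that leave out 1 array (among them 22 weeks, 0.71, adjusted p 0.131 by limma; the range over all alternatives was 0.0041 to 0.146). Masp1, the second member called higher, had another probe set that changed by -2.08, and its direction is uncertain.

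Most genes of cell division, and some of the growth factor systems, were lower in long-term muscle. Of 22 cell cycle genes 15 were lower and none higher, with a median of -1.19. Of these 22 genes 5 needed the short-term arrays to pass the filter, and 12 of the other 17 were lower. Mki67, a marker of dividing cells, read 52.4, 117 and 144 in short-term muscle and 17.0, 29.2, 10.7 and 20.6 in long-term muscle, against 15.2 to 32.9 in control. Ccnd2, a D-type cyclin, fell by 3.19 on the log2 scale (SE 0.47). In the IGF system 5 of 10 genes were lower (4 under all scalings). Igf1, the growth factor itself, read 1342, 2376 and 4237 early, then 717 and 660 at 6 weeks, 206 at 16 weeks and 188 at 22 weeks, against 136 to 660 in control (change -2.60, SE 0.48, adjusted p 0.000714 by limma). Igfbp4, which binds IGF, changed by -2.35 (SE 0.30). In the TGF-beta system 9 of 21 genes were lower (6 under all scalings) and none higher. Fstl1, a secreted follistatin-like glycoprotein, fell by 2.17. Tgfb1, a ligand tied to fibrosis, read 37.4, 77.6 and 133 early and 9.61 to 33.9 late, and needed the short-term arrays to pass the filter. Of 16 integrin genes 6 were lower and none higher, and 2 were lower under all scalings.

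Markers of other cells outside the fibres fell in part. Of 15 fibroblast markers 12 were lower with a median of -1.69, among them Thy1 (-3.73, SE 0.61), and of 10 tendon markers 7 were lower. Among the 9 tendon markers that passed the filter without the short-term arrays 6 were lower. Tnmd, a membrane protein of tendon cells, read 371, 2416 and 6720 early and 826, 427, 432 and 49.5 late, with 248 to 686 in control. Of 8 Schwann cell and nerve markers 5 were lower (2 under all scalings). Mbp, a myelin protein, read 47.6 and 112 at 1 week, 271 to 453 at 2 to 4 weeks and 57.1 to 111 in long-term muscle, so that 1 of its 1-week arrays lay below all late arrays and the other just above the highest (change -1.50, SE 0.52, adjusted p 0.0306 by limma). Its call was lost without any 1 of 7 arrays, among them 22 weeks (-1.36, adjusted p 0.0858; range over all alternatives 0.00132 to 0.201). Endothelial markers (2 lower and 1 higher of 13, 1 and 1 under all scalings) and smooth muscle and pericyte markers (3 lower and 1 higher of 14, 0 and 1 under all scalings) had call shares under or near those of all genes. Plvap, a protein of fenestrated endothelium, was the endothelial gene that fell furthest (-1.91, SE 0.33). Of 15 adipocyte markers 6 were lower (4 under all scalings) and 1, Aqp7, was higher. Leaving out those that needed the short-term arrays to pass the filter, 5 of 13 were lower. Adipoq, the adipocyte hormone adiponectin, was not called (-0.80, SE 0.51, adjusted p 0.225 by limma), with 30.3 to 126 in long-term, 49.99 to 413 in short-term and 49.8 to 130 in control muscle. These defining markers were measured in every group, and their part in the matrix and immune results was not tested.

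Mitochondrial genes rose. Of 28 genes of fatty acid oxidation and uptake 27 were higher in long-term muscle (96.4% against 19.4% of all genes), none was lower, and the median change was 0.97. Hadh, a dehydrogenase of mitochondrial beta-oxidation, read 977, 1322 and 1768 in short-term muscle. It read 3416 and 3762 at 6 weeks, 4390 at 16 weeks and 4097 at 22 weeks, against 3935 to 4678 in control (change 1.58, SE 0.14, adjusted p 2.07e-05 by limma). Every long-term array lay above every short-term one, and the 6-week values lay just under the lowest control. Eci2, an isomerase needed for unsaturated fatty acids, rose 4.33-fold, from 83.7, 289 and 528 to 1058, 1087, 1065 and 1335. Cpt1b, the muscle carnitine palmitoyltransferase that admits fatty acids to mitochondria, rose from 2306, 2774 and 3257 to 4796, 4535, 4976 and 5068 (control 4667 to 5248). Acot2, a mitochondrial acyl-CoA thioesterase, rose as well (1.51, SE 0.25) but read 817, 785, 1377 and 1377 against 990 to 2486 in control. Its difference from control was -0.66 with an unadjusted 95% interval of -1.25 to -0.07, and its adjusted p was 1.

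Genes of the respiratory chain and of the enzymes that feed it rose as well, in complexes II to V in about as many members as not. Of 34 complex I genes 29 were higher (median 0.62), of 37 genes of complexes II to V 19 (median 0.34), of 22 citric acid cycle and pyruvate oxidation genes 20 (median 0.70) and of 42 mitochondrial ribosomal protein genes 38 (median 0.69), and none of these was lower. Under all scalings the counts were 28, 14, 20 and 28. Ndufs1, the largest complex I subunit, read 448, 1228 and 2484 in short-term muscle and 3972, 4114, 3653 and 4730 in long-term muscle, against 3825 to 4317 in control (change 1.71, SE 0.33, adjusted p 0.000856 by limma). Cs, citrate synthase, read 2481, 3075 and 3601 early and 4604, 4613, 4687 and 4999 late (change 0.63, SE 0.12). Of 16 regulators of mitochondrial gene expression 9 were higher. Ppargc1a, the coactivator PGC-1alpha, read 97.3, 145 and 180 early and 345, 340, 407 and 461 late (change 1.51, SE 0.43, adjusted p 0.0119 by limma). Its controls read 332, 346, 307 and, in control 3, 2296. Of its other probe sets 1 gave 1.35 and 1, with a mean near the floor, gave -0.03. With the mean over all probe sets Ppargc1a was no longer called (0.94, adjusted p 0.0827 by limma), nor with only the 6-week arrays (1.34, adjusted p 0.121). Perm1, a muscle regulator of the same programme, changed by 1.45 (SE 0.25). Mitochondrial carriers and import genes were higher in 13 of 21. Quantile normalization, which forces equal distributions on all arrays, gave smaller medians for these lists relative to the median gene, 0.72 for fatty acid oxidation, 0.39 for complex I, 0.17 for complexes II to V, 0.45 for the citric acid cycle and 0.46 for the mitochondrial ribosome, all still above 0.

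The promoters of the respiratory and mitochondrial ribosomal genes can be read in the RefSeq sequences of build GRCr8. All tested list members with a promoter were searched, called or not. The windows searched run from 250 bases before to 50 after each gene's start. The core site of NRF1, a factor known to act on nuclear genes for mitochondria, was searched as GCGCATGCG on both strands, which finds the palindromic form as overlapping matches. It was found in 5 of 64 respiratory chain promoters (7.81%) and 3 of 34 mitochondrial ribosomal promoters (8.82%), against 3.34% of the promoters of 9234 tested genes and 1.66% of all 27457. It was found in 0 of 23 fatty acid oxidation and 0 of 14 collagen promoters. Of the 8 respiratory and mitochondrial ribosomal genes with the NRF1 core 7 were called higher, and Atp5me was not. The ERR element, spelled TGACCTTGA and searched on both strands, lay in 2 of the 64 respiratory chain promoters, and the AP-1 site TGANTCA in 1 of 14 collagen promoters (7.14%) against 4.91% of those of tested genes. The letters TATAAA, searched on both strands anywhere in the window, lay in 6 of 17 matrix glycoprotein and proteoglycan promoters (35.3%), against 7.19% of those of tested genes and 14.3% of all. In Ccn1, Ccn2 and Postn they began 34, 31 and 44 bases before the start, and in Ogn, Spp1 and Tnc more than 200 bases before it, away from where a TATA box lies. These are matches of letters and not measured binding. The 4 windows are those of all plus-strand genes called higher whose NRF1 matches lie wholly within the 120 bases before the start. The windows give these 120 bases with the NRF1 core in capitals, 5' to 3' on the plus strand of GRCr8, to show where it lies. They are Mrps18b at chr20:2842886-2843005, Mrpl22 at chr10:42845790-42845909, Ndufa11 at chr9:1637494-1637613 and Uqcrc1 at chr8:118468103-118468222.
Mrps18b: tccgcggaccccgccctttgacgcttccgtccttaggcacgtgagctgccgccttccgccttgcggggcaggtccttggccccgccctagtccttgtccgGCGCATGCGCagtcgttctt
Mrpl22: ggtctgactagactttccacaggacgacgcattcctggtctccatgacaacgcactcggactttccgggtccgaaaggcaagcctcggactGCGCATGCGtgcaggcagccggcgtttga
Ndufa11: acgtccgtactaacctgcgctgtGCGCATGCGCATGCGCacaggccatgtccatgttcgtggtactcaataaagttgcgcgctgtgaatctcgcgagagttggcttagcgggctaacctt
Uqcrc1: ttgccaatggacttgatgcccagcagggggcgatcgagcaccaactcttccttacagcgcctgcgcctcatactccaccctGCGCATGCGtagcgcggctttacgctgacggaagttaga
Mrps18b and Mrpl22, proteins of the small and large subunit of the mitochondrial ribosome, rose by 1.11 (SE 0.15) and 0.77 (SE 0.12). Ndufa11 of complex I rose by 0.69 (SE 0.11) and Uqcrc1 of complex III by 0.64 (SE 0.11).

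Fuel handling genes rose in narrower sets. Of 18 lipid droplet and glycerol handling genes 6 were higher and none lower. Aqp7, the channel that carries glycerol across the cell membrane, had the second largest rise of all named genes, from 30.6, 74.8 and 109 to 604, 422, 771 and 467, within the control range of 486 to 956 on 2 of 4 arrays (change 3.12, SE 0.31, adjusted p 3.45e-05 by limma). Plin4, a lipid droplet coat protein, rose from 247, 379 and 569 to 1325, 1380, 2424 and 1416, with 1620 to 2129 in control. Of 16 genes of glucose uptake and insulin signalling 7 were higher, among them Slc2a4, the insulin-responsive glucose transporter (0.65, SE 0.13). Slc2a4 was not called with the mean over its probe sets (0.48, adjusted p 0.0697 by limma). Slc2a1, the basal transporter, was lower (-0.62, SE 0.18), but not under all scalings. Of 25 genes of glycolysis and glycogen 12 were higher and 1 lower. Stbd1, which tethers glycogen, read 307, 396 and 491 early and 580, 683, 2085 and 1767 late, with 769 to 3278 in control. Its 6-week values lay under all controls and those at 16 and 22 weeks within their range (change from short-term 1.49, SE 0.40). With the 6-week arrays alone the change of Stbd1 was 0.69 and was not called (adjusted p 0.251 by limma). Hk1, the hexokinase common outside muscle fibres, was the lower gene (-0.89, SE 0.21). Its call was lost on the deposited scale (-0.62, adjusted p 0.0784 by limma), with the mean over its probe sets (-0.44, adjusted p 0.0969) and with only the 6-week arrays (-0.74, adjusted p 0.0623).

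Gnat3, a G protein alpha subunit known from taste cells, had the largest rise of the named genes. It lay at the floor on both 1-week arrays, read 20.4 and 13.7 at 2 weeks, 66.7 at 3 weeks and 279 at 4 weeks, and then 656, 300, 1447 and 1004. Its controls ranged from 174 to 1908, so that the 4-week value already lay within them. The fitted change was 4.71 (SE 0.86, adjusted p 0.000691 by limma) and depends on the floor for the 1-week arrays. Pik3c2g, a class II phosphoinositide kinase, rose from 30.9, 57.3 and 106 to 222, 328, 440 and 430, with 236 to 388 in control. Fam216b, whose function is not known with certainty, read 10.7, 33.4 and 95.9 early and 296, 167, 128 and 359 late, with 74.0 to 144 in control. Its late level was 1.31 above control with an unadjusted 95% interval of 0.19 to 2.42 and an adjusted p of 1.

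**Figure D3:**
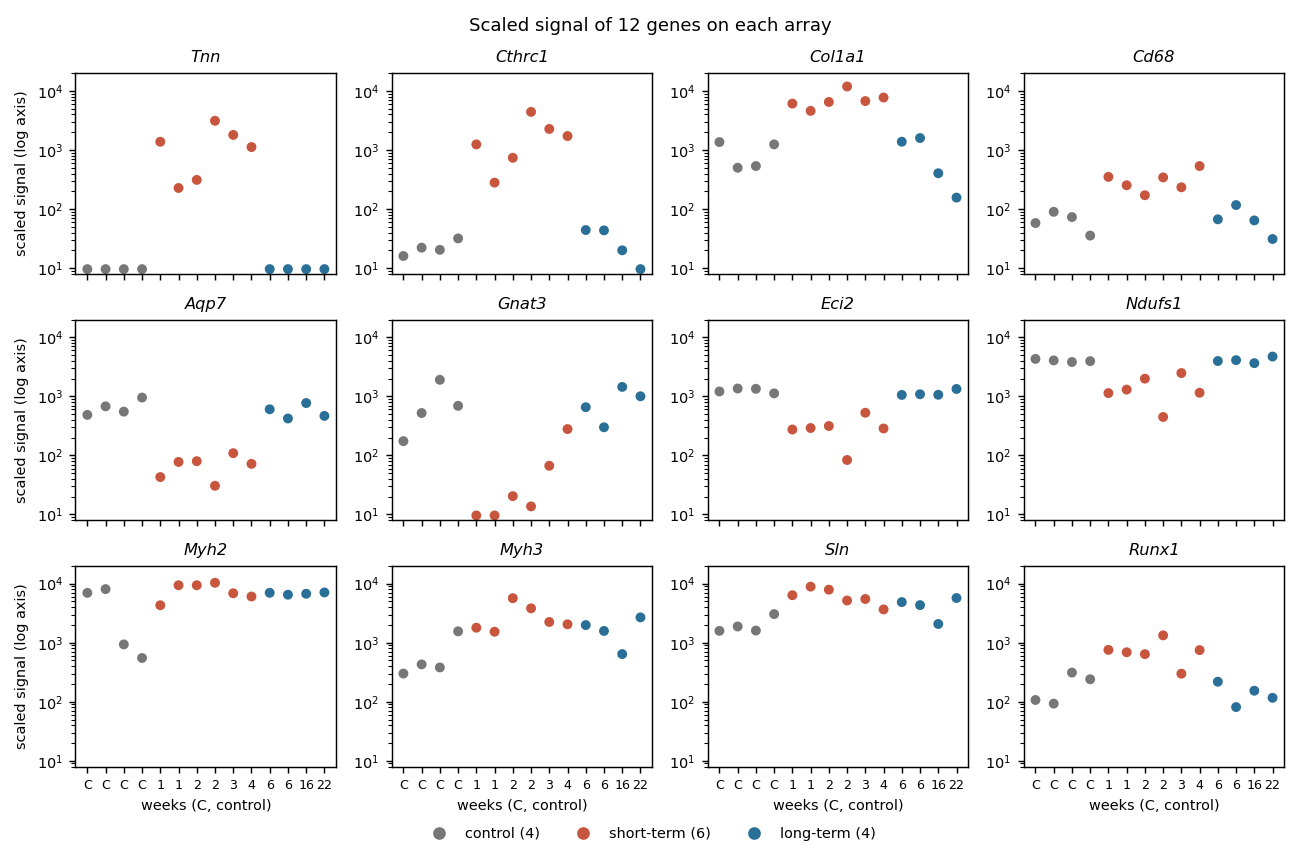
Scaled signal (log axis) of 12 genes on each of the 14 arrays, ordered by control and then by weeks after tenotomy, 1 point per muscle. Tnn, Cthrc1, Col1a1 and Cd68 lie low again from 6 weeks, Aqp7, Gnat3, Eci2 and Ndufs1 lie high again, and at least 3 of the 4 long-term values of Myh2, Myh3 and Sln lie within the short-term range.

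Contractile genes gave a mixed picture. Of 10 slow fibre genes 1 was called, Casq2, the slow-fibre calsequestrin that stores calcium (0.93, SE 0.19), and it rose. Of 16 fast fibre genes 4 were lower and 1 higher. Myh4, the fastest myosin heavy chain, read 64.0, 224 and 1653 early and 13.3 to 71.9 late, with 17.7 to 50.5 in control (change -3.19, SE 0.67, adjusted p 0.00172 by limma). Mybpc2, fast myosin binding protein C, fell by 3.22 (SE 0.80), although it read 912 and 436 in controls 1 and 2 but 32.4 and 21.6 in controls 3 and 4. Myh1, the IIx heavy chain, went the other way, from 1778, 2673 and 3483 to 5308, 5549, 6424 and 6945 (change 1.20, SE 0.17). Of its other probe sets 3 also gave rises (0.95 to 1.57), and 1 gave -0.64. Such closely similar genes can share probes, and their direction is uncertain.

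Myh2, Tnnt3, Myh3 and Sln did not pass the test between long-term and short-term muscle. Tnnt3 was called lower when the controls were left out of the model (-0.60, adjusted p 0.0269 by limma), and Sln without the 4-week array (-0.74, adjusted p 0.0498 by limma). Myh2, the IIa heavy chain, read 4314, 8143 and 10360 early and 6511 to 7106 late. Its controls read 6997 and 8095 in controls 1 and 2 but 937 and 551 in controls 3 and 4, so that the difference from control (1.56, unadjusted 95% interval 0.18 to 2.94) rested on 2 low controls. Tnnt3, fast troponin T, had the same 2 low controls, 390 and 150. Myh3, the embryonic heavy chain, read 1535, 2148 and 5679 early and 1992, 1584, 643 and 2686 late, against 301, 430, 381 and 1559 in control. Its mean change from short-term was -0.74 (unadjusted 95% interval -1.76 to 0.28, adjusted p 0.231 by limma), and its mean lay 1.54 above control (unadjusted 95% interval 0.42 to 2.65, adjusted p 1). In rat 62 the 6-week muscle read 1584 against 301 in its own control leg, and in rat 61 1992 against 1559. Sln, sarcolipin, a small inhibitor of the calcium pump, read 3665, 5940 and 8916 early and 4878, 4340, 2076 and 5722 late, with 1587 to 3057 in control. It was 1.02 above control (unadjusted 95% interval 0.35 to 1.69, adjusted p 1), and 3 of the 4 long-term values lay above every control.

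In the developmental and myogenic list 3 genes were higher and 3 lower of 14 (21.4% each, near the 19.4% and 20.8% of all genes), and under all scalings 1 was higher and 1 lower. Mymk, the fusogen of muscle precursor cells, read 25.1, 45.0 and 147 early, at most 15.5 late and at most 17.1 in control. Myh8, the perinatal heavy chain, read 20.9, 106 and 510 early, 42.9, 34.1 and 34.2 at 6, 6 and 22 weeks and the floor at 16 weeks. Of its controls 3 lay at the floor and the other at 10.4. Both needed the short-term arrays to pass the filter on low signals. Myog, a myogenic transcription factor, was 0.37 higher than in short-term muscle (SE 0.13), a call lost without any 1 of 5 tenotomized arrays, and its long-term values of 947 to 1108 lay above all controls (709 to 862). Runx1, a transcription factor induced by denervation, fell from 299, 720 and 1333 to 81.3 to 218 (change -2.35, SE 0.40, adjusted p 0.000431 by limma). This was the larger of 2 falls among 16 denervation and end-plate genes (12.5%, below the share of all genes). Calcium handling and excitation genes were higher in 7 of 19 (36.8% against 19.4% of all genes) and dystrophin complex genes in 4 of 11 (36.4%, 2 under all scalings). Sarcomere scaffold genes were higher in 5 of 25, about the share of all genes. None was lower in these 3 lists.

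Among protein turnover and stress genes, chaperones and antioxidant enzymes had shares of higher genes above that of all genes, and the atrophy, proteasome and cytosolic ribosome lists had shares below it in both directions. Of 16 atrophy ligase and FOXO genes 2 were higher and 1 lower. Asb2, a muscle ubiquitin ligase subunit, rose from 1103, 1696 and 2426 to 2894 to 4559 (1.01, SE 0.20). Foxo1, a factor that drives atrophy genes, read 13.2, 103 and 145 early and 9.61 to 19.6 late, and needed the short-term arrays to pass the filter. The classical atrophy ligases Trim63 (0.45, SE 0.34) and Fbxo32 (0.21, SE 0.50) were not called. Scaled to the median of all probe sets, where the median gene was 0.37 higher, Trim63 was called higher (0.83, adjusted p 0.0459 by limma). Of 30 proteasome genes 1 was called, which was not called under all scalings, and of 35 cytosolic ribosomal protein genes 3, all lower (1 under all scalings), led by Rpl3 (-1.07, SE 0.13), which read 3718, 4370 and 6010 early and 1890 to 2443 late. Among the 33 cytosolic ribosomal genes that passed the filter without the short-term arrays 2 were lower. Of 24 autophagy and lysosomal genes 6 were lower (4 under all scalings) and 1 higher. The cathepsins Ctss, Ctsa, Ctsh and Ctsb were among the lower ones (-1.06 to -2.13), and Tfeb, the factor that drives lysosomal genes, was the higher one (0.93, SE 0.14). Among 25 chaperones 11 were higher (44.0% against 19.4% of all genes) and 2 lower, and under all scalings 6 were higher and 0 lower. The higher ones included the mitochondrial chaperones Hspd1 (0.59) and Hspa9 (1.14), whose other probe sets gave 1.67, 0.21 and -0.999, and the lower ones were Hsp90b1 of the endoplasmic reticulum and Dnajb1. In the list of ATF4 and unfolded protein response genes 4 were higher (15.4%) and 7 lower (26.9%) of 26 (4 and 3 under all scalings). The largest fall was that of Pdia3, a folding enzyme of the endoplasmic reticulum (1385, 1612 and 2136 early, 377 to 702 late, change -1.64, SE 0.17). Antioxidant enzymes were higher in 11 of 23 (47.8%) and lower in 3, with a median of 0.44, and under all scalings in 9 and 1. In the polyamine list 5 genes were higher (31.2%) and 2 lower (12.5%) of 16 (3 and 1 under all scalings). Odc1, which makes putrescine, rose (1.15, SE 0.13) and Sat1, which acetylates polyamines for export, fell (-1.20, SE 0.22). Of 15 circadian clock genes 2 were higher (13.3%, below the share of all genes), Cry1 and Hlf. Of 20 stretch-responsive and load-responsive genes 4 were higher and 2 lower (2 and 2 under all scalings), and Ankrd1 was the larger fall (-1.48, SE 0.42).

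How far each list had returned was described on the 4 long-term arrays. For each array, a list's mean log2 signal was placed between the short-term mean (0%) and the control mean (100%), for the lists whose short-term mean lay at least 0.5 from control. This is a description without a test. Fatty acid oxidation lay at 83.6% and 86.8% at 6 weeks, 107% at 16 weeks and 95.04% at 22 weeks. Complex I lay at 90.3%, 94.4%, 105% and 112%, and the mitochondrial ribosome at 81.4%, 80.7%, 97.01% and 102%. At 4 weeks the mean of complex I, -0.95 relative to control, was the lowest of the 6 short-term arrays, and at 6 weeks it was -0.07 and -0.04. The cell cycle list lay at 106%, 97.5%, 114% and 122%, and Schwann cell and nerve markers at 105%, 106%, 133% and 125%. The Schwann cell list mean was 0.08 and 0.02 at 1 week, within the controls (-0.24 to 0.15), and 1.00 to 1.31 at 2 to 4 weeks. Its 0% point therefore does not describe the 1-week muscles.

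**Figure D4:**
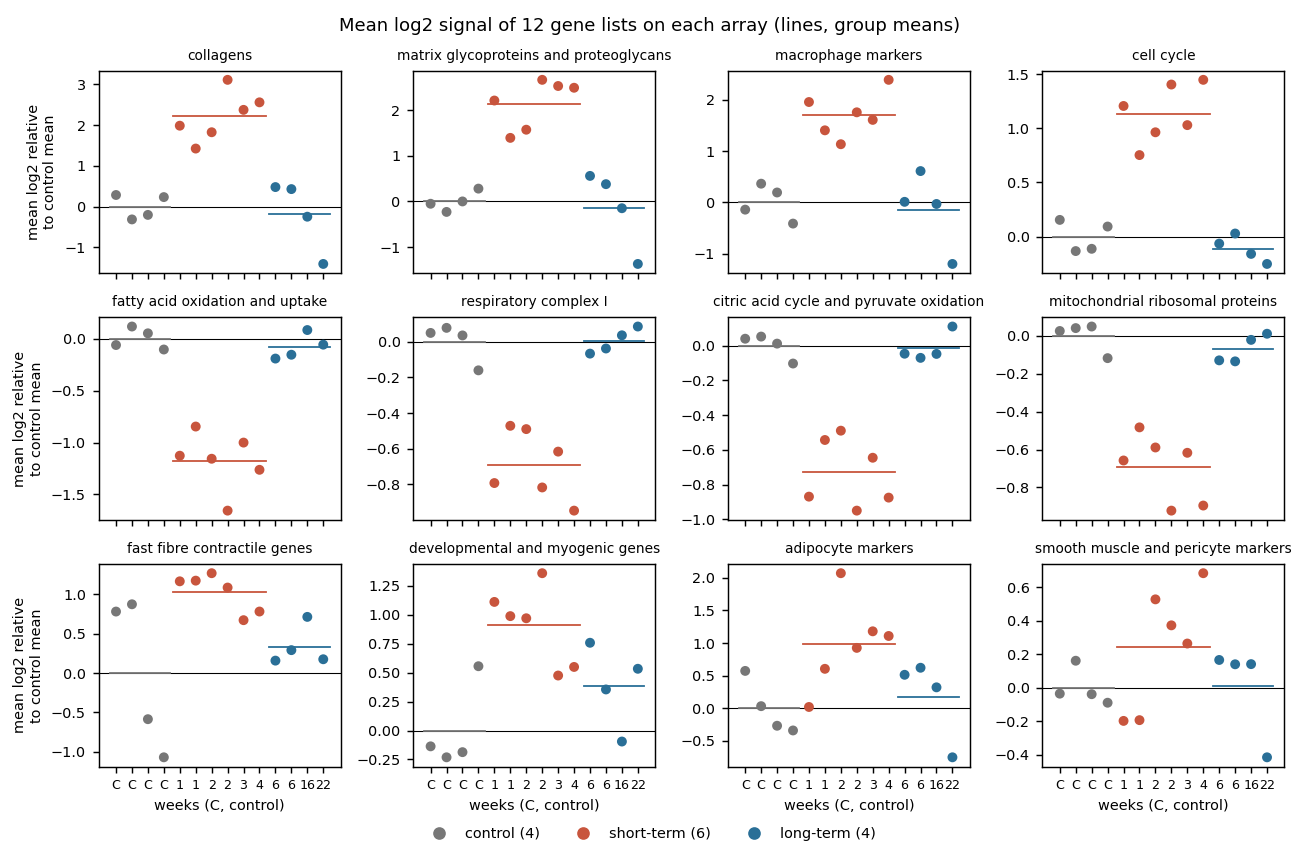
Mean log2 signal of 12 gene lists on each array relative to the control mean, by weeks after tenotomy, with a line for each group mean. Collagens lie at 2.37 and 2.56 at 3 and 4 weeks and at 0.48 and 0.43 at 6 weeks, and complex I lies at -0.62 and -0.95 at 3 and 4 weeks and at -0.07 and -0.04 at 6 weeks.

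Matrix and immune lists lay at varying positions at 6 weeks and past control at 22 weeks. Collagens lay at 78.3% and 80.6% at 6 weeks, 111% at 16 weeks and 164% at 22 weeks. Macrophage markers lay at 99.4% in rat 61 and 64.3% in rat 62 at 6 weeks, then at 102% and 170%. At 22 weeks the means relative to control were -1.41 for collagens, -1.20 for macrophage, -1.32 for fibroblast, -0.70 for endothelial and -0.41 for smooth muscle and pericyte markers, so that all of these lists read low on this 1 array. No other array of this time was analysed here, and the part of the array's high 3' to 5' ratio and number of genes at the floor in these values was not tested. Without this array, an alternative chosen after seeing the data, the mean return was 90.0% for collagens, 88.5% for macrophage markers and 79.9% for fibroblast markers, against 108%, 109% and 107% with it.

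Other lists lay further from control or varied between arrays. Adipocyte markers lay at 47.9% and 36.9% at 6 weeks, 67.4% at 16 weeks and 176% at 22 weeks, and developmental and myogenic genes at 16.6%, 60.96%, 111% and 41.3%. Adipocyte list means ran from 0.02 (1 week) to 2.07 (2 weeks) on the short-term arrays, so their 0% point averages unlike arrays. Fast fibre genes lay at 84.6%, 71.6%, 30.3% and 82.9%, but their controls spread from -1.07 to 0.87 around their mean, wider than the short-term arrays (0.67 to 1.27). Lipid droplet genes lay at 92.5%, 83.5%, 133% and 29.8%. The mean of the ATF4 and unfolded protein response list lay 0.36 below control in short-term and 0.38 below control in long-term muscle, with the control of rat 61 at -1.28 and its 6-week muscle at -1.05, so this list read low in both legs of that rat.

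**Figure D5:**
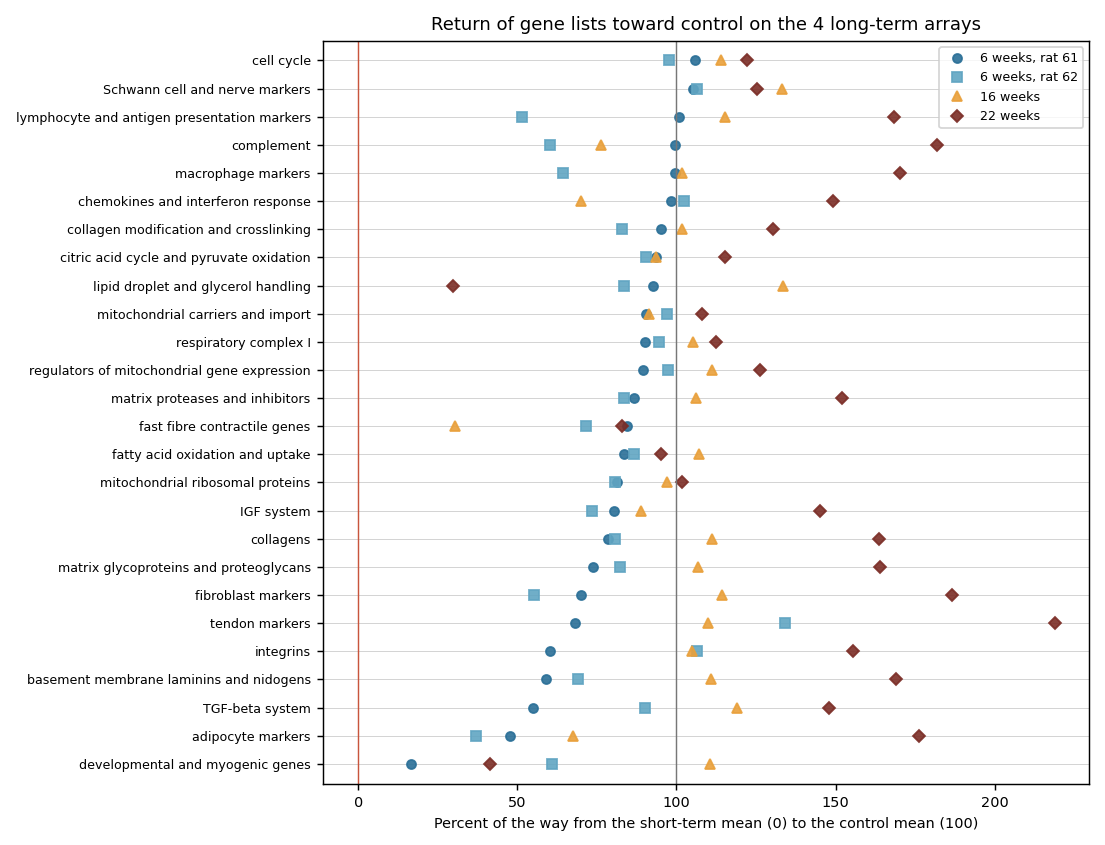
Position of each of the 4 long-term arrays between the short-term mean (0, red line) and the control mean (100, grey line) for the 26 lists whose short-term mean lay at least 0.5 from control on the log2 scale. Mitochondrial lists lie between 80.7 and 126, matrix and immune lists between 51.4 (6 weeks) and 182 (22 weeks), and the developmental, adipocyte, fast fibre and lipid droplet lists lie below 50 on at least 1 array.

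How close long-term muscle came to control is limited by the number of arrays and by the model. The model estimates 1 spread per gene from all groups together, so the spread of the short-term arrays enters the intervals below. With only the long-term and control arrays in the fit, 401 genes reached an unadjusted p under 0.05 by limma, against 258 in the main fit. The unadjusted 95% interval of a gene's difference from control reached a median of 0.46 log2 units to either side. In 9152 genes (82.7%) this interval lay within 1 log2 unit of 0 on either side. Of the collagens 17 of 19 differed from control by less than 0.5 in mean. This mean averages arrays on both sides of control and does not describe each muscle. In order of time, the collagen list means of the long-term arrays were 0.48, 0.43, -0.25 and -1.41 relative to the control mean. Those of the controls ran from -0.31 to 0.28. The intervals of the collagens reached a median of 0.94 to either side. These intervals are unadjusted, while a call needed an adjusted p under 0.05. A difference larger than 0.94 could therefore have gone uncalled in a typical collagen. Of the complex I genes all 34 lay within 0.5, with intervals that reached a median of 0.27 to either side. The data therefore bound the difference from control more tightly for the mitochondrial than for the matrix genes.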

How the data were processed

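The authors deposited 1 signal per probe set, a linear intensity with no log step, from 14 Affymetrix arrays, 1 per muscle. They were made with MAS5, per the submitters' processing notes. The scaling target, software version and detection calls are not given in the sources used here. The number of arrays limits the precision.

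Of 31099 probe sets, 57 controls were left out, 20826 carried 1 gene symbol, 436 several and 9780 none listed. Symbols of the platform annotation, which can be old, were updated through Entrez identifiers to RefSeq names (GRCr8). Signals were taken to log2 and brought to a common median. The probe set with the highest mean stood for each of 14217 genes, and the 11062 genes above the pooled 40th percentile (signal 22.0) on at least 4 arrays were kept. A gene above that signal on fewer than 4 of the 8 control and long-term arrays is described as needing the short-term arrays to pass. Each array was then shifted by the median deviation of the kept genes, and values under the pooled 25th percentile (9.61) were raised to it.

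The model, a limma 3.58.1 fit in R 4.3.3, had a mean per group over all 14 arrays and an intensity trend in the variance, and was tested on simulated data. All p-values were adjusted by Benjamini-Hochberg across the 11062 genes, and a call is one under 0.05. Rats 61 and 62 gave both a control and a 6-week array, per the labels. The main model ignores this, and a model with the rat as a random block (correlation 0.47) was an alternative.

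Genes were named by rule: the 12 largest rises and 12 largest falls between long-term and short-term muscle without overlap and at least 2 log2 units above the floor, the same against control (which gave none), up to 4 members per list with any few that went the other way, and a fixed set of genes. The members and the 49 lists were chosen with earlier results of these data known, so the lists' counts are not independent evidence. Genes shown by array, and the genes of the promoter windows, were picked after their values were seen, and the motifs searched were chosen with the list results known. Red blood cell markers had fewer than 5 measured genes and are not described. Other scalings, floors, filters, probe set rules, models and sets of arrays were tried.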

Additional observations from a re-analysis of the deposited data

Results flagged for a closer look

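In groups of 4 to 6 arrays, 22 of 321 checks found 1 array far from the others of its group by Dixon's test; chance gives about 1 in 20. Of these 6 were list means (log2, relative to control). The 22-week array read high for the citric acid cycle (0.11, others -0.07 to -0.05) and low for smooth muscle and pericyte markers (-0.41, others 0.14 to 0.17). The 16-week array read high for glucose uptake and insulin signalling (0.10, others -0.15 to -0.12). The control of rat 61 read low for mitochondrial ribosomal proteins (-0.12, others 0.03 to 0.05) and high for developmental and myogenic genes (0.56, others -0.23 to -0.14). The first 1-week array read low for polyamine and nitrogen metabolism (-0.17, others -0.07 to -0.03).

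The other 16 were single genes, given as log2 signals. On the second 2-week array Col3a1 (13.60) and Mmp14 (12.45) read high and Eci2 (6.39) read low. On the 22-week array Eci2 (10.38) read high, and Hk1 (6.33) and Adipoq (4.92) read low. On the 16-week array Plin4 (11.24) read high and Myh8 (3.26) lay at the floor. Control 3 read high for Fam216b (7.17), Ppargc1a (11.17), Trim63 (11.04) and Myh8 (3.38, with the other controls at the floor). Control 2 read high for C3 (5.26) and Mbp (6.80), control 1 read low for Ccl21 (4.997), and control 4 read low for Cs (12.06).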

How the results depend on the processing

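Of 1470 list medians under the alternatives 1425 stayed within the spread of the list mean between arrays of a group and 45, in 26 of 49 lists, moved past it; list medians are relative to each alternative's median gene. Counts of higher and lower genes moved to 4692 and 1331 when scaled to the median of all probe sets. On the deposited scale 1206 were lower. With only the 6-week arrays as long-term they were 985 and 1103, and as a slope on the week 706 and 811. Without 1 array they ran from 1659 to 2344 higher (fewest without the 22-week array) and 1819 to 2464 lower. Long-term against control gave 0 calls under every alternative run, with 148 to 695 genes at an unadjusted p under 0.05.

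With the rat as a replicate block 2176 genes were higher and 2340 lower, and long-term against control gave 0. The slope and the splits of short-term times were run for the counts only.

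Quantile normalization gave medians of 0.72 for fatty acid oxidation, 0.39 for complex I, 0.17 for complexes II to V, 0.45 for the citric acid cycle, 0.29 for mitochondrial carriers, 0.46 for mitochondrial ribosomal proteins, 0.26 for glycolysis, -0.38 for autophagy, -0.048 for the proteasome, 0.0081 for chaperones, 0.19 for antioxidant enzymes and 0.084 for the polyamine list. With only the 6-week arrays the medians were -1.81 for collagens, -1.31 for matrix glycoproteins, -1.77 for matrix proteases, -0.625 for basement membrane, -0.31 for TGF-beta, -0.64 for integrins, -1.37 for complement, -0.96 for cell cycle, -0.60 for ATF4, -1.40 for macrophage and -1.55 for tendon markers. Without the 6-week arrays they were 0.62 for glucose uptake, 0.40 for the dystrophin complex, 0.445 for chaperones, -0.73 for TGF-beta, -2.34 for complement and -1.46 for cell cycle. The mean over probe sets gave -1.68 for matrix proteases, -0.32 for TGF-beta, 0.17 for the polyamine list and -1.26 for lymphocyte markers. The higher floor gave -1.27 for matrix proteases and -0.97 for cell cycle, array weights -0.71 for basement membrane, and the stricter filter -2.36 for lymphocyte markers. Leaving out 1 array gave -1.11 to -0.73 for basement membrane, 0.16 to 0.39 for the dystrophin complex, -0.19 to -0.066 for autophagy, -2.02 to -1.44 for complement and 0.15 to 0.30 for the polyamine list. The cause of these moves was not tested.

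Of 50 called genes shown in detail 39 stayed past the threshold under every alternative. Calls gained, for Trim63, Tnnt3 and Sln, are given with those genes. With only the 6-week arrays Ppargc1a (1.34), Tnmd (-1.80) and Timp4 (0.45) were no longer called. The 50 genes include some that needed the short-term arrays to pass the filter, for which a call is not a test result. Scd was 1 of these, with a change of -1.64 with only the 6-week arrays. Signs turned only for uncalled genes: Myh7 (0.26 with the all-probe-set median, 0.15 deposited, 0.0079 quantile), Myh2 (0.26 and 0.15 under the first pair) and Fbxo32 (-0.090 without the 6-week arrays, and -0.14 to 0.48 without 1 array, lowest without the second 2-week array). The number of arrays and genes near the floor limit the precision.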
